A study of Bos taurus with 34 samples.

Results

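The genes described are core pluripotency factors of the early embryo: NANOG, SOX2, POU5F1, SALL4, KLF4, KLF5, PRDM14, ESRRB, DPPA3 and TBX3. They were taken as the rows whose gene symbol equals one of these 10 names in the blastocyst table of 18442 genes and in the morula table of 14878 genes. A row was found for 9 of the 10 in each table. No row carried the symbol SOX2, which was not analysed here. RNA was sequenced from 34 single bovine embryos to compare embryos with a deletion of CSF2RA, which encodes a receptor subunit that binds the cytokine CSF2, with control embryos. The blastocysts were 9 knockouts (7 females and 2 males) and 17 controls (8 females and 9 males), and the morulae were 4 knockouts (3 females and 1 male) and 4 controls (1 female and 3 males). Sample titles write the knockout as CSF2KO, and the deleted gene is named CSF2RA in the series title. For all embryos of both genotypes the labels' protocols name growth in vitro and added recombinant Wnt5A, whereas the series title and design speak of embryos in utero or made in vivo, and this was not settled. Age in days and breed were not given in the sources used here.

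Pluripotency factors are DNA-binding proteins that keep cells of the inner cell mass, and later the epiblast, able to form every tissue of the fetus. As the morula becomes a blastocyst, the outer cells turn into trophectoderm, the precursor of the placenta, and the inner cells divide into epiblast, in which NANOG and SOX2 are held, and hypoblast, in which GATA6 and SOX17 are held. In cattle POU5F1 is known to persist in the trophectoderm of the early blastocyst, so it marks the inner cells less sharply than NANOG does. RNA came from whole embryos, so fewer cells of a lineage and less RNA per cell cannot be told apart.

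Values are RPKM, reads scaled to the gene's genomic span and to the depth of the library, so a gene with long introns has a low value and levels were compared between embryos rather than between genes. Libraries held 44879 to 17598170 reads in genes in blastocysts (median 254758 in knockouts and 878069 in controls) and 43679 to 1526852 in morulae (median 87893 and 314121.5). The deletion could not be checked from the transcript, since CSF2RA had 2 reads in all over 17 control blastocysts, 2 over 9 knockout blastocysts and no row in the morula table. Control blastocyst 12 stood apart, with 2791 detected genes against a control median of 12237 and 35.8% of its reads from mitochondrial genes against a median of 4.62%. The trophectoderm factors CDX2 and GATA3, the hypoblast factor GATA6 and the keratin gene KRT18 were at 0 in it, where KRT18 had at least 1720 RPKM in the other 16 controls. Knockout morula 21 likewise had 4392 detected genes, with CDX2, GATA3 and GATA6 at 0. Knockout blastocyst 57 (44879 reads) and knockout morula 49 (43679 reads) were the shallowest libraries. The fitted results below are given with and without these 4 libraries, called the libraries in doubt. The blastocyst libraries also differed in the share of reads at bta-mir-2887-1, a microRNA locus: it was 0.458% to 1.4% in control blastocysts 35, 36, 37, 51 and 52 and 1.85% to 2.13% in knockouts 57 and 58, but 3.7% to 5.19% in 11 controls and 2.85% to 8.63% in 7 knockouts. Control 12, with 0.0339%, was kept out of the low-share set because it stood apart in other ways. A limit of 2.5%, set after seeing these shares, was used to repeat results within the second kind of library. In morulae the share was 1.87% to 2.85% in the 4 knockouts, and 4.52%, 5.47%, 0.00675% and 4.33% in controls 39, 41, 54 and 73. Each knockout morula thus lay below controls 39, 41 and 73 and above control 54. The limit was not used in morulae, and the part of the share in the morula values was not tested. The labels name no batch.

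NANOG, the homeodomain factor that marks the epiblast, had a lower median in knockout than in control blastocysts, but the difference did not pass any test over all blastocysts. NANOG (ENSBTAG00000020916, ARS-UCD1.2 chromosome 5, 101412795 to 101417948) ranged from 0 through a median of 11.7 to 21.5 RPKM in the 17 controls and from 0 through 5.75 to 10.9 RPKM in the 9 knockouts. Each of the 9 knockouts was below the median of the controls, and 9 of the 17 controls were above every knockout. The controls themselves were spread widely: controls 69, 70, 71 and 66 had 19.7, 21.5, 18.7 and 18.6 RPKM, while controls 36, 72 and 51 had 0.504, 1.62 and 2.35 RPKM. These low values rested on 2, 7 and 5 reads, where 3 reads would be 0.756, 0.695 and 1.41 RPKM at their depths. Control 37, the deepest library, had 3.15 RPKM on 252 reads, also below the knockout median. Knockouts 3 and 57 had no NANOG read, which allows up to 3.27 and 9.64 RPKM at their depths (3 reads). The difference in mean log2(RPKM + 1) was −0.75 (exact permutation within sex, two-sided, p = 0.204, n = 9 and 17). Without control 12, which also had no NANOG read, it was −0.94 (exact permutation p = 0.0584), and without both control 12 and knockout 57 it was −0.66 (exact permutation p = 0.113). Depth limits this gene more than most members, since the median knockout held 12 NANOG reads and the median control 31.

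POU5F1 and SALL4 did not separate the genotypes. POU5F1, the POU-domain factor also called OCT4, is ENSBTAG00000021111 on chromosome 23, 27982798 to 27987297. It ranged from 0 through a median of 113 to 227 RPKM in controls and from 85.6 through 119 to 199 RPKM in knockouts. The value of 0 was that of control 12, and the other 16 controls ran from 63.7 to 227 RPKM. Of all 17 controls, 1 lay above the knockout range and 3, control 12 among them, lay below it. SALL4, a zinc-finger partner of POU5F1, had a median of 12.3 RPKM in controls (0 to 16.4) and 12.4 RPKM in knockouts (6.72 to 23.0). The 3 highest of all SALL4 values were in knockouts, namely 23.0 RPKM in knockout 75, 17.7 RPKM in knockout 57 and 17.3 RPKM in knockout 50.

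KLF4 and KLF5, Krüppel-like factors that in the mouse act in both the inner cells and the trophectoderm, had higher medians in knockouts, within the spread of the controls. KLF4 had a median of 39.7 RPKM in knockouts (13.2 to 57.2) and 23.6 RPKM in controls (0 to 110). In 7 of the 9 knockouts KLF4 exceeded the control median, yet the single highest value, 110 RPKM on 80 reads, was in control 11. KLF5 had a median of 30.8 RPKM in knockouts (18 to 46.3) and 25.4 RPKM in controls (0 to 52). The highest KLF5 values among knockouts were in both males, 46.3 RPKM in knockout 75 and 41.9 RPKM in knockout 50, and 1 control, again control 11, exceeded them.

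PRDM14, known in the mouse for repressing FGF signalling and DNA methyltransferase genes in naive pluripotent cells, went the way of NANOG. Its median was 2.41 RPKM in knockouts (0.610 to 5.09) and 4.04 RPKM in controls (0 to 5.97), and 8 of the 9 knockouts lay below the control median. As for NANOG, the reads were few: 4 of the 9 knockouts had fewer than 10 PRDM14 reads. ESRRB, an orphan nuclear receptor of mouse naive pluripotency, spans 186 kb in these tables and so has low RPKM on many reads. It had a median of 2.52 RPKM in knockouts (1.90 to 3.35) and 2.21 RPKM in controls (0 to 3.44). TBX3, a T-box factor, had a median of 54.3 RPKM in knockouts (42.2 to 66.6) and 55.7 RPKM in controls (0 to 71.8). Leaving out control 12, the coefficient of variation of TBX3 among controls was 20.5% and that of ESRRB 23.2%, against 65.0% for NANOG and 83.2% for KLF4. The KLF4 figure includes control 11 at 110 RPKM, where the next highest control, 61, had 47.1 RPKM. Median reads over all 17 controls were 576, 326, 31 and 80 in that order. The part of counting error in these figures was not tested.

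DPPA3, also called STELLA, is a maternal protein that in the mouse shields the methylated maternal genome in the zygote and is kept in pluripotent cells. It lies on chromosome 5 beside NANOG, with 71471 bases between them, and its group medians were close where those of NANOG were not. DPPA3 had a median of 7.60 RPKM in knockouts (4.25 to 14.4) and 7.56 RPKM in controls (0 to 27.1). The highest value of any embryo, 27.1 RPKM on 205 reads, was in control 12, where the other 8 members had no read. In that library the NODAL co-receptor TDGF1 also stood at 106 RPKM and the oocyte importin KPNA7 at 25.1 RPKM, where the other 16 controls had at most 8.91 and 0.044 RPKM. The 10 oocyte and maternal markers, 5 of them detected, together came to 473 RPKM in control 12, the top of a range from 0 among controls, and to 0 to 23.8 RPKM in knockouts. Among them OOEP was at 0 in control 12. Their part in the DPPA3 value was not tested.

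**Figure D1:**
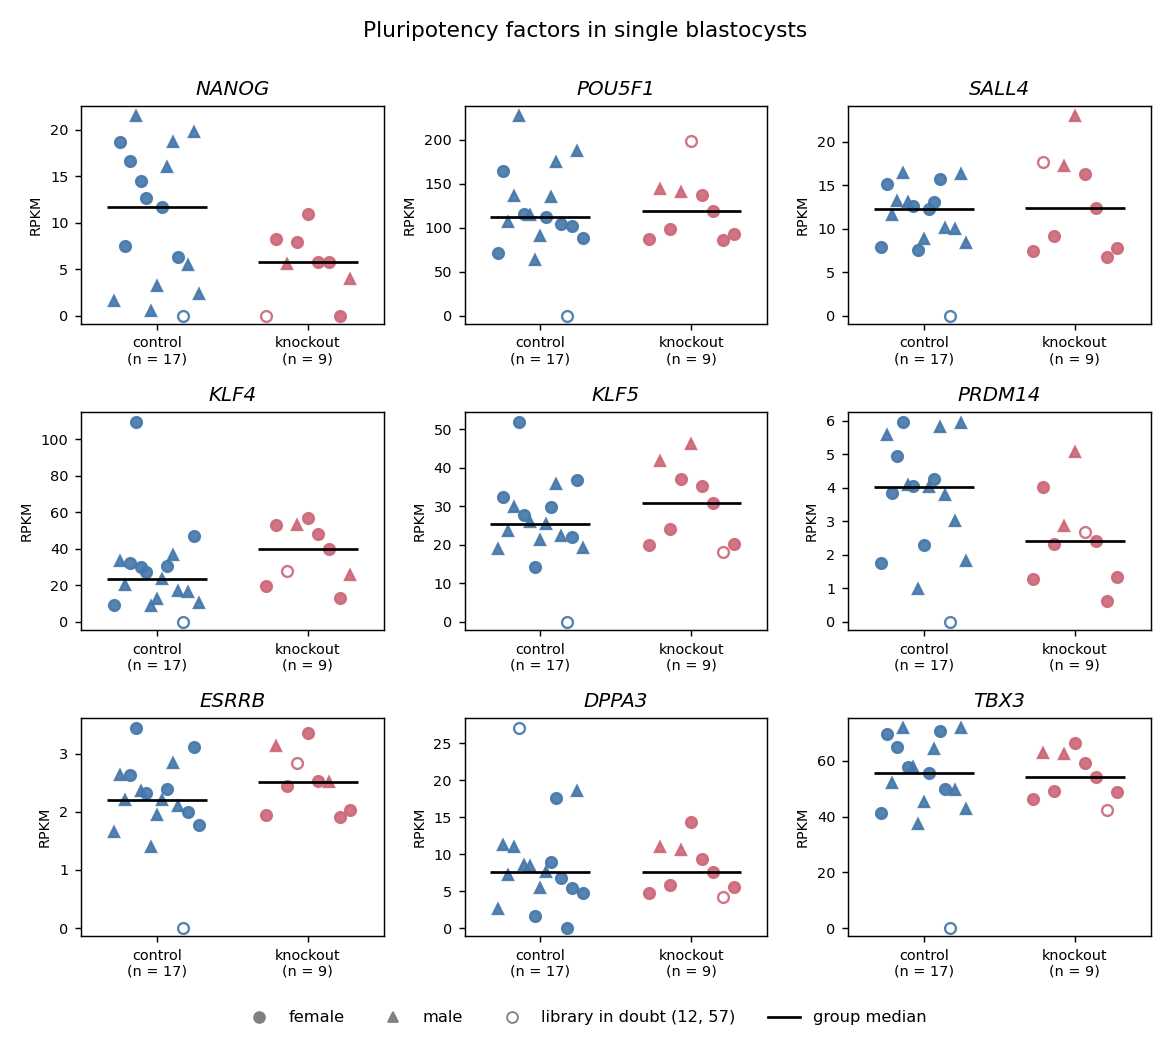
RPKM of the 9 members (y axes) in 17 control and 9 knockout blastocysts. Each point is 1 embryo, circles are females, triangles are males, open symbols are control 12 and knockout 57, and lines are group medians; the knockout NANOG values lie between 0 and 10.9 RPKM, all below the control median of 11.7.

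Across the whole blastocyst table no gene was called between the genotypes, and none of the 9 members. Limma-trend with sex as a term gave 0 of 6283 genes (0%) at an adjusted p under 0.05 and 173 (2.75%) at an unadjusted p under 0.05, and limma-voom on recovered reads also called 0, with 208 at an unadjusted p under 0.05. None of the 9 members was among the 173. The fitted log2 change, knockout minus control, was −0.81 ± 0.58 (SE) for NANOG and −0.25 ± 0.30 for PRDM14. The other 7 members had positive values, from 0.22 ± 0.19 for ESRRB to 0.69 ± 0.58 for POU5F1 and 0.76 ± 0.53 for KLF4. The median over the 9 members was 0.43, against 0.08 over all genes tested. Without control 12 alone the members' median was 0.10 against −0.07 over all genes tested, and without knockout 57 alone 0.36 against 0.13. Without both it was 0.06 against −0.02, and POU5F1, SALL4 and TBX3 stood at 0.01 ± 0.20, 0.06 ± 0.20 and 0.01 ± 0.14. NANOG was then −0.85 ± 0.50 and PRDM14 −0.46 ± 0.26. In the authors' deposited table the log2 fold change of NANOG was −0.95 with an FDR of 0.719, the lowest FDR of the 9 members.

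**Figure D2:**
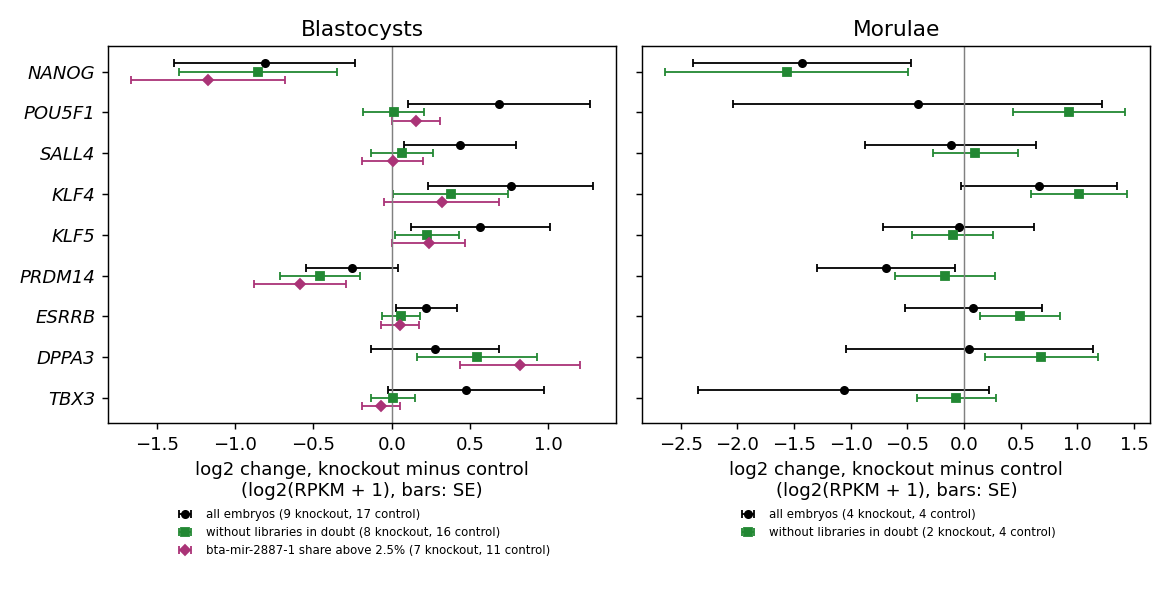
Fitted log2 changes of the 9 members, knockout minus control, on log2(RPKM + 1) with SE bars, in blastocysts and in morulae. Black circles use all embryos, green squares leave out the libraries in doubt and purple diamonds keep blastocysts with a bta-mir-2887-1 share above 2.5%; NANOG is negative in all 5 estimates, at −0.81, −0.85 and −1.17 in blastocysts and −1.43 and −1.57 in morulae, and none of them is a called difference.

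The members also varied between the library kinds, not all in the same direction. In the 5 controls with a low bta-mir-2887-1 share, which leave out control 12, NANOG ran from 0.504 through a median of 3.15 to 11.7 RPKM, and in the 11 controls with a high share from 1.62 through 16 to 21.5 RPKM. POU5F1 went the other way, from 136 through 175 to 227 RPKM in the low-share controls and from 63.7 through 104 to 135 RPKM in the high-share ones, so that the POU5F1 values of these sets did not overlap. That was so for 1 of the 9 members and for 958 of 6283 genes (15.2%); with control 12, at 0, the POU5F1 ranges overlap. DPPA3 had medians of 11.2 RPKM (7.16 to 18.6) and 5.45 RPKM (0 to 8.93). TBX3 had medians of 42.7 and 64.3 RPKM. The low-share controls were 4 males and 1 female.

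Within the high-share libraries, NANOG had a median of 5.75 RPKM in 7 knockouts (0 to 10.9) and 16 RPKM in 11 controls (1.62 to 21.5). Each of these 7 knockouts was below that median, and 8 of the 11 controls were above every knockout. The difference in mean log2(RPKM + 1) was −1.18 (exact permutation within sex p = 0.0304, unadjusted, the lowest of 9 members), and the fitted change was −1.17 ± 0.49, which did not pass over all genes (adjusted p = 0.574). DPPA3 had a fitted change of 0.82 ± 0.38 (adjusted p = 0.611), with 6 of 7 knockouts above the control median, and PRDM14 one of −0.59 ± 0.29 (adjusted p = 0.636). Again 0 of 6248 genes were called in these libraries by limma-trend, with 501 at an unadjusted p under 0.05. Limma-voom was not run on this set.

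Because the control libraries fell into separate kinds, relations between members were read within the 11 high-share controls. Of 36 pairs of members, 1 passed, NANOG with PRDM14 (Pearson r = 0.93, permutation p = 0.00026, adjusted p = 0.00936; Spearman rho = 0.75, permutation p = 0.00997, adjusted p = 0.208). Without the 2 embryos farthest from the median of NANOG r was 0.64. In the 9 knockouts the same pair had r = 0.28 and rho = −0.18, with no test. Control 72, with 1.62 RPKM of NANOG and 0.972 RPKM of PRDM14, was the lowest in both. Depth went along with both genes, since rho with total reads was 0.37 for NANOG and 0.57 for PRDM14 in these 11, and its part in the relation was not tested. NANOG and POU5F1 had r = 0.75 (permutation p = 0.0105, adjusted p = 0.0551), which became −0.02 without the 2 farthest embryos and so rests on them. NANOG and DPPA3 had r = 0.63 (permutation p = 0.0567, adjusted p = 0.146), and 0.69 without the 2 farthest. The median r over the 36 pairs was 0.51, and KLF4 with DPPA3 was the lowest at −0.26.

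**Figure D3:**
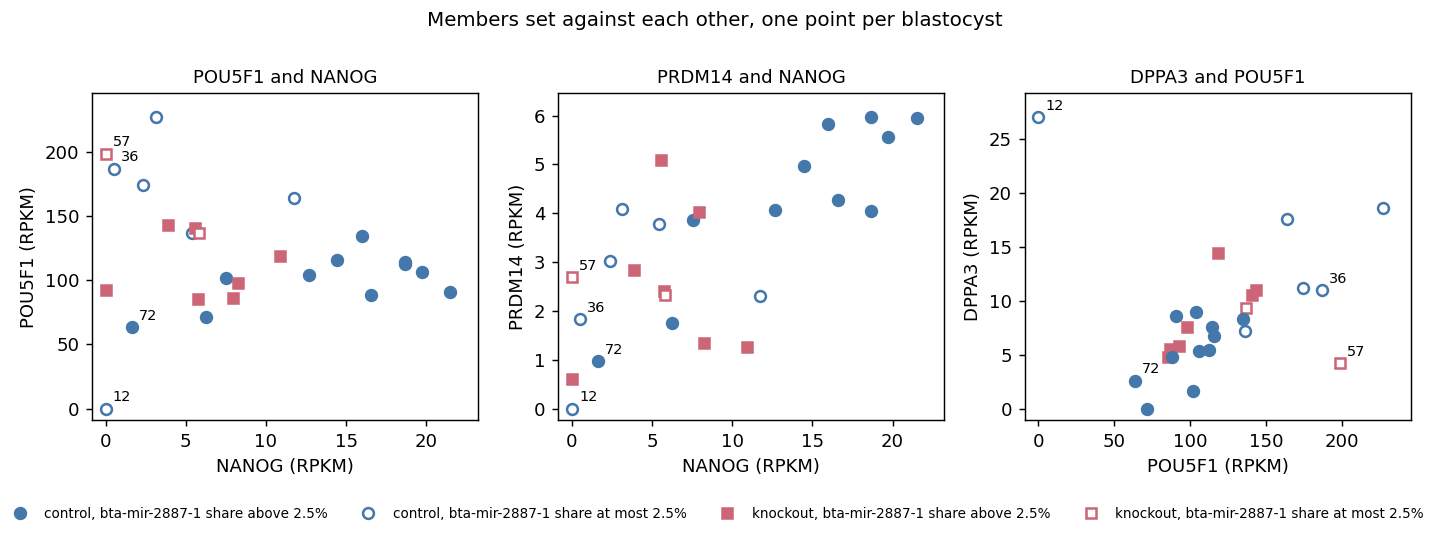
POU5F1 against NANOG, PRDM14 against NANOG and DPPA3 against POU5F1, all axes in RPKM, with 1 point per blastocyst (circles control, squares knockout; filled, bta-mir-2887-1 share above 2.5%; open, at most 2.5%). Open control points other than control 12 sit at 136 to 227 RPKM of POU5F1, and the filled controls at 63.7 to 135.

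Over all 26 blastocysts the genes whose levels ranked most like NANOG, among 5727 genes with a symbol, were MVD of the mevalonate pathway (Spearman rho = 0.80), the tubulin gene TUBB (0.80) and the glycolytic enzyme gene ENO1 (0.80). Among members, PRDM14 (0.66) and TBX3 (0.62) ranked most like NANOG and POU5F1 had −0.18. The genes most like POU5F1 were IMP4 (0.87), CDC123 (0.86) and ACIN1 (0.84), and its closest member was DPPA3 (0.50, or 0.68 without control 12). These are descriptions over embryos that share library kind and depth, and carry no test.

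No member was called between the sexes either. Between 11 male and 15 female blastocysts limma-trend with genotype as a term called 0 of 5959 genes (0%), with 662 (11.1%) at an unadjusted p under 0.05, none of them a member, and limma-voom called 0, with 749 at an unadjusted p under 0.05, 1 of them POU5F1 (1.35 ± 0.59, adjusted p = 0.37). The largest fitted differences among members, male minus female, were 0.92 ± 0.56 for POU5F1 and 0.57 ± 0.34 for SALL4, which without the libraries in doubt were 0.34 ± 0.19 and 0.28 ± 0.19. The largest were then 0.67 ± 0.36 for DPPA3, −0.62 ± 0.48 for NANOG and −0.58 ± 0.35 for KLF4, none called. Male controls ran from 63.7 through a median of 135 to 227 RPKM of POU5F1 and female controls from 0 through 103 to 164 RPKM, and the ranges overlapped. Male controls 35, 36, 37 and 51 were low-share libraries, with 136 to 227 RPKM of POU5F1 and 0.504 to 5.42 RPKM of NANOG. The high-share male controls had 63.7 to 135 and 1.62 to 21.5 RPKM, and the high-share female controls 71.7 to 116 and 6.26 to 18.6 RPKM. Above the share limit of 2.5% limma-trend called no member for sex, with 1 at an unadjusted p under 0.05. The members' median change was then 0.04, against 0.11 over all genes tested. The title of control 72 gives male and its column name female; with it as female no member was called.

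Whether the genotypes differed by sex was tested as an interaction. Limma-trend called 0 of 6283 genes (0%), with 94 (1.5%) at an unadjusted p under 0.05, none a member, and limma-voom called 0, with 156 at an unadjusted p under 0.05. Both male knockouts had more KLF5 (41.9 and 46.3 RPKM) and more SALL4 (17.3 and 23.0 RPKM) than any of the 9 male controls, whose highest values were 35.8 and 16.4 RPKM. Of the 7604 genes tested in males, 211 (2.77%) had both knockouts above every control, 2 of the 9 members among them. Limma-trend within males called 2 genes (0.0263%), neither a member, with 361 (4.75%) at an unadjusted p under 0.05, KLF5 and SALL4 among them (adjusted p = 0.794 and 0.91). Female knockouts ran from 18 to 37.2 RPKM of KLF5 and from 6.72 to 17.7 RPKM of SALL4, within or near the female controls (up to 52 and 15.7 RPKM). The interaction, the change in males minus that in females, was 0.38 ± 0.98 for KLF5 and 0.42 ± 0.79 for SALL4, or 0.92 ± 0.40 and 0.99 ± 0.38 without the libraries in doubt (adjusted p = 0.902 for both). With 2 male knockouts these differences rest on few embryos.

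In morulae the NANOG values were also lower in knockouts, on very few reads. NANOG was 4.50, 7.52, 0 and 7.99 RPKM in control morulae 39, 41, 54 and 73, and 1.56, 0, 4.37 and 0 RPKM in knockout morulae 1, 5, 49 and 21. Each of the 4 knockouts was under the control median of 6.01 RPKM, and the groups overlapped because control 54 had no NANOG read in 340731 reads. That control had a bta-mir-2887-1 share of 0.00675%, against 4.33% to 5.47% in controls 39, 41 and 73. No knockout morula had more than 1 NANOG read, and a count of 0 allowed up to 4.80 RPKM in knockout 5 and 14.8 RPKM in knockout 21. At this depth knockout 21 could not be told from any control, and knockout 5 could not be told from control 39. Knockouts 1 and 49 had 1 NANOG read each, where 3 reads would be 4.67 and 13.1 RPKM. Both of these exceed the value of control 39, and that of knockout 49 exceeds every control, so these knockouts were not resolved from them either. The limit of knockout 5 lay under the values of controls 41 and 73. Those values rested on only 11 and 4 reads, and their own counting error was not set against the limit. The difference in mean log2(RPKM + 1) was −1.24 (exact permutation, two-sided, p = 0.229, where 4 against 4 embryos can reach 0.0286).

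POU5F1 was 77.7, 68.9, 131 and 52.6 RPKM in control morulae 39, 41, 54 and 73, and 111, 191, 75 and 0 RPKM in knockout morulae 1, 5, 49 and 21. Knockout 21 thus held the lowest value and knockout 5 the highest, and the groups overlapped. DPPA3 was 8.03, 5.88, 4.39 and 11.9 RPKM in those controls and 16.5, 9.53, 14.4 and 0 RPKM in those knockouts, on at most 16 reads per knockout. Apart from knockout 21, every knockout lay above the DPPA3 control median of 6.96 RPKM. TBX3 was 51.4, 31.9, 38.2 and 45.3 RPKM in controls and 41.5, 37.6, 26.1 and 0 RPKM in knockouts, all 4 below the control median of 41.8 RPKM.

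Of the other members, PRDM14 had a median of 1.09 RPKM in knockout morulae (0 to 2.69) and 3.06 RPKM in controls (1.68 to 5.57), with 2 of 4 knockouts at 0. KLF4 had medians of 28.3 and 39.4 RPKM, KLF5 of 17.4 and 26.9 RPKM, SALL4 of 8.85 and 11 RPKM, and ESRRB of 2.44 and 2.16 RPKM, in knockouts and controls in that order. For these 4 genes, and for PRDM14, the ranges of the genotypes overlapped. Knockout 21 had no read for 6 of the 9 members and 1 read for SALL4.

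**Figure D4:**
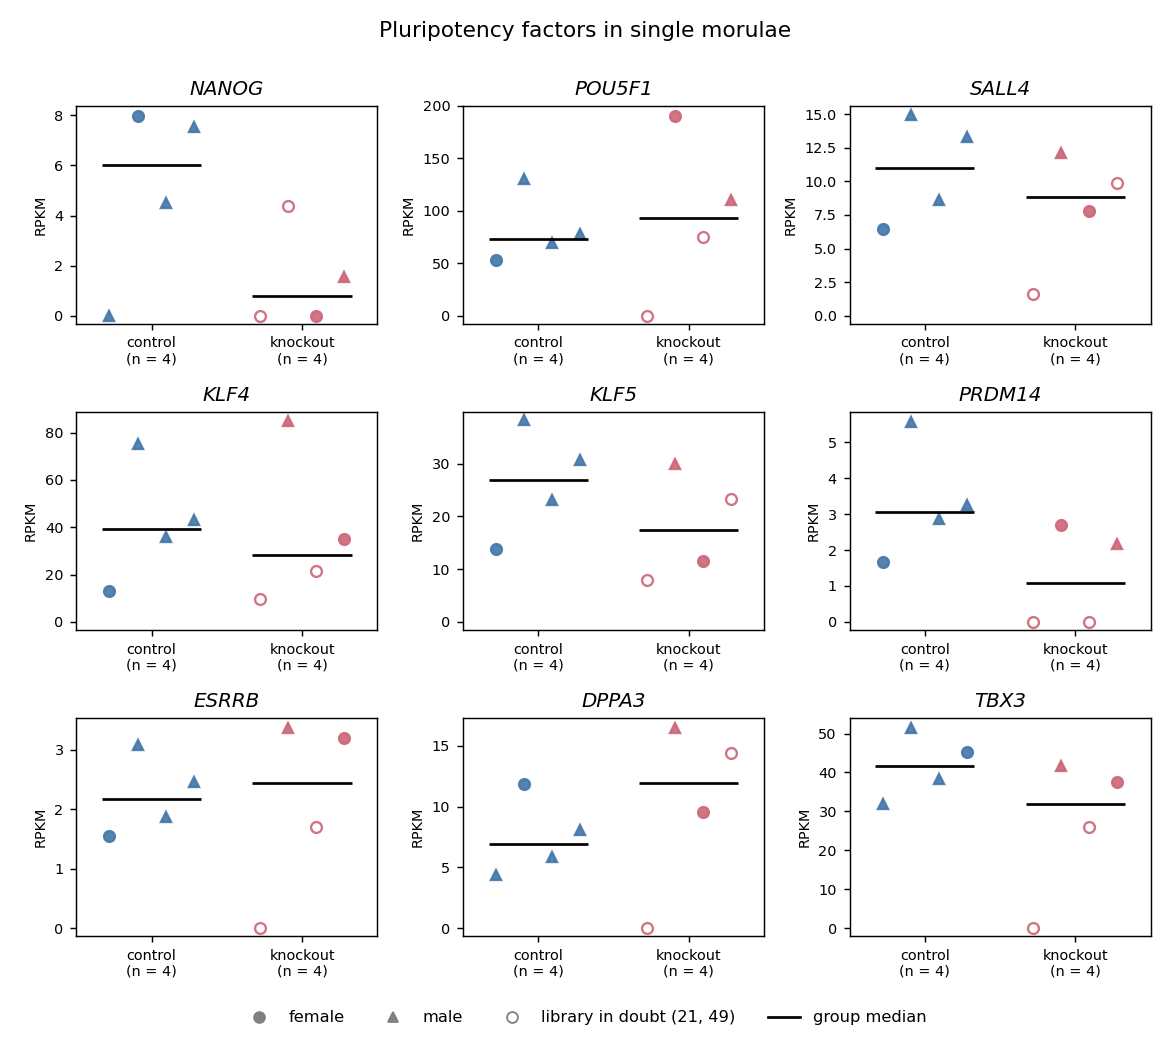
RPKM of the 9 members (y axes) in 4 control and 4 knockout morulae. Each point is 1 embryo, circles are females, triangles are males, open symbols are knockout morulae 21 and 49, and lines are group medians; knockout 21 is at 0 for NANOG, POU5F1, PRDM14, ESRRB, DPPA3 and TBX3.

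Limma-trend with sex as a term called 0 of 5021 genes (0%) between the genotypes in morulae, with 345 (6.87%) at an unadjusted p under 0.05, none of them a member, and limma-voom called 0, with 246 at an unadjusted p under 0.05. The fitted change was −1.43 ± 0.96 for NANOG, −1.06 ± 1.29 for TBX3 and −0.69 ± 0.61 for PRDM14, and 0.66 ± 0.69 for KLF4. The median over the 9 members was −0.12, against −0.34 over all genes tested. Without knockouts 21 and 49 NANOG stood at −1.57 ± 1.07, but POU5F1 turned from −0.41 ± 1.63 to 0.92 ± 0.49, and TBX3 and PRDM14 came to −0.07 ± 0.35 and −0.17 ± 0.44. In the authors' deposited table NANOG had a log2 fold change of −2.15 (FDR 0.904) and POU5F1 one of 0.52 (FDR 0.935). Beside these values, the 13 trophectoderm markers with a row summed to 199 to 1460 RPKM in knockout morulae (5 to 9 of them detected). In controls the sum was 2880 to 3430 RPKM (11 to 13 detected). Leaving out knockouts 21 and 49, the knockout range was 1150 to 1460 RPKM. A few genes dominated these sums where single markers were read. Most of the sum in knockout 49 came from the keratin genes KRT18 and KRT8, and most of that in knockout 21 from GATA2. The sum is therefore not read as a level shared by all 13 markers. The part of this sum in the members' values was not tested.

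Set side by side, control blastocysts had higher median RPKM than control morulae for 7 of the 9 members, and for 5 after scaling to the reads of the genes in both tables. NANOG had 11.7 RPKM in control blastocysts and 6.01 RPKM in control morulae, a ratio of 1.95 (1.53 in that scaling), and POU5F1 had 113 and 73.3 RPKM, a ratio of 1.54 (1.41). KLF4 was the lowest of these ratios, with 23.6 RPKM in blastocysts and 39.4 RPKM in morulae, a ratio of 0.60 (0.58), and DPPA3, SALL4, ESRRB and KLF5 had ratios of 1.09 (1.04), 1.12 (0.97), 1.02 (0.91) and 0.94 (0.77), so that SALL4 and ESRRB changed direction with the scaling. For all 9 members the control morula values and the control blastocyst values overlapped. The shares over all genes were not computed, so these counts are not read as particular to the members. The tables were normalized separately, so no test was made across stages.

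**Figure D5:**
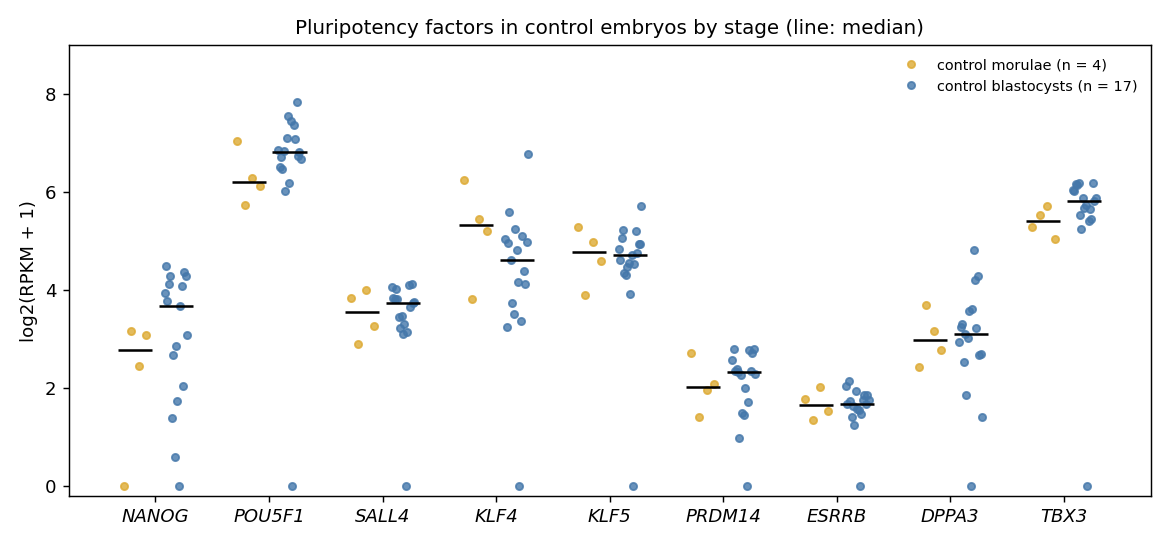
log2(RPKM + 1) of the 9 members (x axis) in 4 control morulae and 17 control blastocysts. Each point is 1 embryo and lines are medians; the ranges overlap for every member, and the blastocyst points at 0 are those of control 12 except for DPPA3, where the point at 0 is control 18.

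No other gene of the pluripotency network was called between the genotypes. Of 32 such genes, 28 had a row and 18 were tested in blastocysts; 10 had positive and 8 negative changes, the median was 0.05 against 0.08 over all genes tested, and none was called. Without the libraries in doubt the balance turned to 4 positive and 14 negative, with a median of −0.25 against −0.02, again with none called. With all embryos the smallest unadjusted p belonged to TDGF1, with a median of 0.422 RPKM in knockouts and 3.27 RPKM in controls and a fitted change of −1.61 ± 0.57 (adjusted p = 0.994). Next were LEFTY2, a NODAL antagonist, at −0.75 ± 0.46, and SOX15, a relative of SOX2, at 0.84 ± 0.53. Without the libraries in doubt TDGF1, which had 106 RPKM in control 12, still had the smallest p, at −1.11 ± 0.47 (adjusted p = 0.999). The next were then LEFTY2 at −0.81 ± 0.49 and DPPA2, in place of SOX15, at −0.27 ± 0.19. In morulae 12 were tested and none called, with 3 positive and 9 negative changes and a median of −0.31 against −0.34 over all genes tested, and without the libraries in doubt 17 were tested, 6 positive and 11 negative, with a median of −0.06 against −0.08. With all morulae the 3 with the smallest p were MYCN at −2.61 ± 0.90, SOX15 at 1.73 ± 1.25 and DPPA4 at −0.72 ± 0.64. Without the libraries in doubt they were SOX15 at 2.05 ± 0.93, MYCN at −2.18 ± 1.03 and MYC at −0.87 ± 0.51. Of 13 trophectoderm genes tested in blastocysts 9 were lower in knockouts, with a median change of −0.18, and of 6 hypoblast genes 4 were lower, also with a median of −0.18; none was called. Without the libraries in doubt 11 of 13 and 5 of 6 were lower, with medians of −0.24 and −0.20. In morulae all 10 tested trophectoderm genes were lower, with a median of −2.06 against −0.34 over all genes tested, and none was called. Without the libraries in doubt 13 were tested and lower, with a median of −1.25 against −0.08, and none was called. Of the 345 genes at an unadjusted p under 0.05 by limma-trend in all morulae, 300 were lower. At either stage a gene could pass the filter through the controls alone, and the share of all tested genes that were lower was not computed. These counts are therefore not read as particular to the trophectoderm genes. With all morulae the smallest p among them was that of PAG2, a pregnancy-associated glycoprotein gene, at −3.62 ± 0.84 (adjusted p = 0.163). It was −2.95 ± 0.63 without the libraries in doubt (adjusted p = 0.206). Next was DLX3 at −2.21 ± 0.55 (adjusted p = 0.235). PTGS2, a prostaglandin synthase gene, followed with a larger change of −4.22 ± 1.12 (adjusted p = 0.293). Without the libraries in doubt, which leaves 2 knockouts, PTGS2 had the smallest p, at −4.45 ± 0.37 (adjusted p = 0.0582). ELF3 came next there, ahead of PAG2, at −3.11 ± 0.45 (adjusted p = 0.142).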

How the data were processed

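Polyadenylated RNA of 34 single bovine embryos was sequenced, per the labels' protocols. FastQC, featureCounts, edgeR and the assembly ARS-UCD1.2 are named in the submitters' processing notes, with no versions. The authors deposited RPKM per gene and embryo, in separate tables for blastocysts and morulae; the blastocyst table names this unit, and for morulae it was inferred from the values. The deposited values equal whole reads over the genomic span, introns included, and over an effective library size, and reads recovered in this way were whole for 100% of genes in each embryo (tolerance 0.01 reads). The authors also deposited a log2 fold change for each gene, along with its p-value and FDR, in tables whose names give a block design or control for sex. The tests behind the deposited p-values are quoted only as the authors' values.

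The labels gave the genotype, stage and sex of each embryo, 1 embryo being 1 replicate; nothing says which embryos shared parents or a collection. The main test was limma-trend (limma 3.58.1, R 4.3.3) on log2(RPKM + 1), robust and two-sided, with sex as a term and Benjamini-Hochberg adjustment over all genes of a table that reached 1 RPKM in a minimum number of embryos, set to the size of the smaller group (9 blastocysts, 4 morulae, 11 for sex), called at an adjusted p under 0.05. All 9 members found passed this filter at both stages. A count test was not the main test because the tables hold normalized values. The count alternative was limma-voom on recovered reads. Single members were also compared by exact permutation of the difference in means (Python 3.11.15, scipy 1.17.1), within sex in blastocysts (353925 arrangements) and over all 8 morulae (70). Pairs were tested with 100000 permutations. The limma script was run on simulated data at equal and at real library depths. Only the runs at equal depth had to meet set limits, and the outcome at real depths is not given here. Limits for a count of 0 are 3 reads and cover counting error only. No column of values was left unmapped.

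The members, the 9 lists of other genes (other pluripotency genes, trophectoderm, hypoblast, oocyte and maternal, cumulus and granulosa, oviduct and uterine epithelium, leukocyte, erythrocyte, fibroblast) and the tests were chosen with earlier results of these data known. Members were always named, genes of the pluripotency and lineage lists where among the 3 smallest unadjusted p of their list, and the 3 genes nearest to NANOG and POU5F1 by Spearman rho. The markers named for the libraries in doubt and the bta-mir-2887-1 limit were picked after their values were seen.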

Additional observations from a re-analysis of the deposited data

How the results depend on the processing

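No member was called between genotypes or sexes, or for their interaction, by limma under any alternative: another pseudocount, no filter, voom, median-ratio scaling, depth as a term, no sex term, single sexes, control 72 as female, each embryo left out, libraries in doubt left out, or, added after seeing the data, a bta-mir-2887-1 share above 2.5%. NANOG was negative in each of these run in blastocysts and each run in morulae. Single sexes, control 72 as female and the share limit were not run in morulae. Of the members' log2 changes, 15 of 306 with 1 embryo left out and 14 of 153 under other settings reversed sign.

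Genes called between genotypes were 0 in blastocysts, and 2, neither a member, in males only; in morulae they became 44 (pseudocount 0.1), 33 (no sex term) and 1 (without libraries in doubt). For sex they became 27 without libraries in doubt, 29 above the limit, and 0 to 1 with 1 embryo left out (1 without control 12). For the interaction they became 17 with no filter and 1 above the limit. Single-gene permutation gave 0 of 18 member tests under 0.05, and 1, NANOG, above the limit. Of 36 pairs 22 passed over all 17 controls, 4 without control 12, 4 in the 8 deeper and 0 in the 9 shallower controls, and 1 above the limit. The 8 deeper controls include control 12, so these counts do not show the part of depth alone.

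Reversed log2 changes in blastocysts were PRDM14 at 0.074 (voom) and 0.085 (males only), and TBX3 at −0.066 above the limit and −0.032 to 0.57 with 1 embryo left out, negative without control 12. In morulae the sign turned for POU5F1 at 0.92 and SALL4 at 0.10 without libraries in doubt, and with median-ratio scaling for SALL4 at 0.062 and KLF5 at 0.16. Without a sex term it turned for KLF4 at −0.31, ESRRB at −0.27 and DPPA3 at −0.15, with pseudocount 0.1 for ESRRB at −0.26 and DPPA3 at −0.43, with voom for ESRRB at −0.35, and with depth as a term for DPPA3 at −0.45. With 1 morula left out the ranges were −1.13 to 0.72 for POU5F1, −0.30 to 0.19 for SALL4, −0.23 to 0.11 for KLF5, −0.18 to 0.37 for ESRRB, −1.24 to 1.33 for DPPA3 and −2.19 to 0.063 for TBX3. The causes were not tested. No paired analysis was possible because embryo numbers are not shared between the groups.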

Other observations

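Markers of cells other than the embryo's own lineages were also read. Of the cumulus and granulosa, oviduct and uterine epithelium, leukocyte, erythrocyte and fibroblast lists, 1 gene each passed the filter in blastocysts and none was called. In morulae 1 gene each of the first 4 lists passed and none was called, and no fibroblast gene passed. The summed fibroblast markers were at most 2.54 RPKM in any blastocyst and 2.05 RPKM in any morula. Summed leukocyte markers reached 79.2 RPKM in a control morula and 42.3 RPKM in knockout morula 21, against 17.9 RPKM at most in blastocysts. Summed cumulus and granulosa markers had a median of 16.9 RPKM in control (up to 37.7) and 17.6 RPKM in knockout blastocysts (up to 36.7), erythrocyte markers 10.3 (up to 86.2, in control 12) and 2.98 RPKM (up to 27.3), and oviduct and uterine markers 5.14 (up to 22.1) and 4.95 RPKM (up to 19). In morulae the oviduct and uterine markers came to 49.4 RPKM in knockout 21, against at most 28.8 RPKM in controls. The filter kept 2 of 10 oocyte and maternal genes in blastocysts and 1 in morulae, none of them called.

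Knockout morula 21, with no read for 6 of the 9 pluripotency factors, held 142 RPKM of the hypoblast factor SOX17, where the other 3 knockout morulae had at most 3.19 RPKM. It also held 123 RPKM of GATA2, a trophectoderm factor, where those 3 had 36.2 to 43.7 RPKM. Control blastocyst 12, with 8 of the 9 factors at 0, held 141 RPKM of GATA2, within the range of the other controls (43.2 to 180), and 16 RPKM of SOX17, also within their range (0 to 30.4). It was the only control blastocyst with reads of the haemoglobin gene HBB (50.9 RPKM). These values were singled out after they were seen.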
